A study of Mus musculus with 12 samples.

Results

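The 10 genes Ffar1, Ffar2, Gpr35, Hcar2, Gpbar1, P2ry10, P2ry14, Adora2a, Adora2b and Sucnr1 encode G protein coupled receptors for fatty acids, other metabolites, bile acids, nucleotides or related lipids, and adenosine. They were taken from the expression table by gene symbol, and all 10 were found among its 36047 genes. Their expression was compared over 3 populations of small intestine eosinophils, with 12 libraries in all and 4 per population. The populations were sorted by the integrin α4β7, a homing receptor, and by CD22, a sialic acid binding lectin best known from B cells. They are called α4β7+ (a4b7+ in the labels), α4β7- CD22- (a4b7- CD22-) and CD22+ here.

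All cells came from wild type C57BL/6J mice labelled as female, given standard chow and no treatment, and no age was used here. According to the study's methods, eosinophils were sorted from lamina propria of the proximal small intestine as live CD45+ CD11b+ SiglecF+ cells without MHCII or Ly6G, and cells of a pair of mice were pooled for each library. The populations were therefore defined by the sort alone, and what separates them in time or place in the tissue was not measured in these libraries. No label says whether libraries of different populations came from the same mice. The design text calls the 4 libraries of a population biological replicates. The values are normalized counts, that is, estimated reads per gene scaled by the study with a size factor for each library. Their totals were not level over the populations, at 15783607 to 16915755 for α4β7+, 15011473 to 15740374 for α4β7- CD22- and 14286474 to 14758267 for CD22+ libraries, with no overlap. Since they come from bulk RNA, fewer cells carrying a transcript and less of it per cell cannot be told apart.

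All 10 of the listed eosinophil markers (Siglecf, Ccr3, Il5ra, Epx, Prg2 and others) averaged above the filter on low values over the 12 libraries. Their summed normalized count lay between 61349 and 75378 for α4β7+, 42743 and 48369 for α4β7- CD22-, and 30966 and 32901 for CD22+, so that it was not level over the populations. By the limits given below, 5 of these markers were called lower in α4β7- CD22- than in α4β7+ libraries, beside 4.35% of all tested genes. In CD22+ libraries 8 were called lower than in α4β7+ (Il5ra, Alox15, Prg2, Ccr3, Epx, Ear6, Ear2 and Ear1), beside 6.39%. Alox15 was also called lower in CD22+ than in α4β7- CD22- libraries, and 0 were called higher in any comparison. Itgb7, the β7 integrin chain used in the sort, was lower in α4β7- CD22- than in α4β7+ libraries by 3.57 on the log2 scale (limma, Benjamini-Hochberg adjusted p = 2.75e-06). Cd22 was higher in CD22+ than in α4β7- CD22- libraries by 1.59 (limma, adjusted p = 2.84e-05). The cells were sorted on these proteins, so that both differences are tied to the sort and are no independent finding. Cd22 was also higher in α4β7- CD22- than in α4β7+ libraries, by 1.99 (limma, adjusted p = 3.25e-07), although neither label names CD22 as present.

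Receptors of this kind let a cell read the chemistry of its surroundings. Ffar1 and Ffar2 respond to long-chain and short-chain fatty acids, Hcar2 to ketone bodies, butyrate and niacin, Gpbar1 to bile acids, Sucnr1 to succinate, and Gpr35 to tryptophan metabolites and lysophospholipids. P2ry14 binds UDP-glucose and other UDP-sugars, P2ry10 responds to lysophosphatidylserine, and Adora2a and Adora2b raise cyclic AMP when they bind adenosine. In the gut, fatty acids come from the diet and from bacterial fermentation, bile acids from the liver, and nucleotides and adenosine from stressed or dying cells.

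Of the 10 genes, 7 had an average normalized count above 10 and were tested with the other genes that passed this filter, 15249 in all. Gpbar1, Adora2b and Sucnr1 did not pass. A gene was called where the populations differed by at least 1.5-fold and limma, with p-values adjusted by Benjamini and Hochberg's method, gave an adjusted p of 0.05 or less. The model was fitted to log2(normalized count + 1) over all 12 libraries. Log2 fold changes below are on that scale, which understates the change of a gene with few counts.

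Between α4β7- CD22- and α4β7+ eosinophils, 2 of the 7 tested receptor genes were called higher (Ffar1 and Ffar2) and 2 lower (Gpr35 and P2ry10), against 3.7% of all tested genes called higher and 4.35% called lower. Between CD22+ and α4β7+ eosinophils, these 4 genes were called in the same directions, against 5.6% of all tested genes higher and 6.39% lower. Between CD22+ and α4β7- CD22- eosinophils, Ffar1 was the 1 receptor gene called higher and 0 of the 7 were called lower in limma, against 0.21% and 0.393% of all tested genes. At an unadjusted p below 0.05, 2 of the 7 were lower in that last comparison, P2ry10, which missed a call by the fold limit (limma adjusted p = 0.0337), and P2ry14 (limma adjusted p = 0.14). At that threshold 6.02% of all tested genes were lower and 3.65% higher. The first and second comparisons share the α4β7+ libraries, so that the 4 shared calls are not independent of each other. These genes and the related lists below were chosen with earlier results of these data known. Their shares beside those of all tested genes are therefore descriptive and no test of enrichment.

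**Figure D1:**
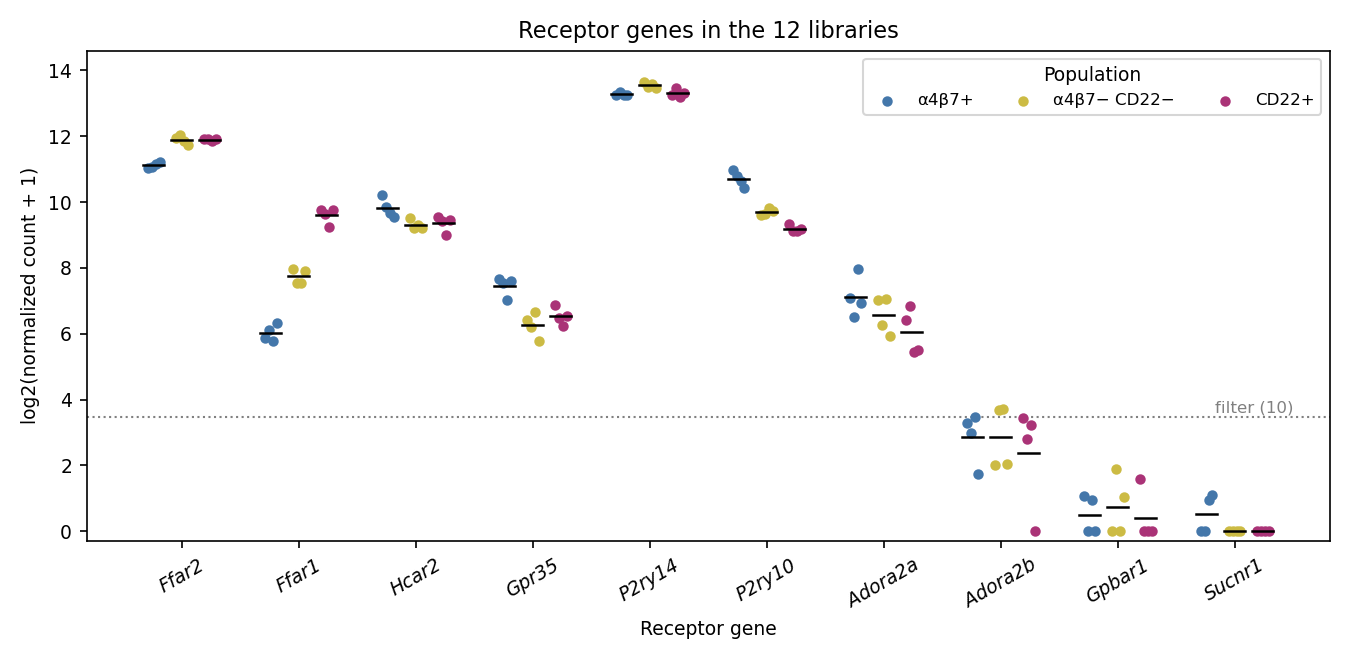
Level of each receptor gene in each library, as log2(normalized count + 1), with 1 point per library, 4 libraries per population and a bar at the population mean; the dotted line marks the filter at 10 normalized counts. Ffar1 rises in 2 separate steps from 53.46 normalized counts in its lowest α4β7+ library to 871.3 in its highest CD22+ library, while P2ry14 lies near the top of the scale in all 12 libraries and Gpbar1 and Sucnr1 lie near 0.

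Before the values of the fatty acid receptors, the stretches upstream of Ffar1, Ffar2 and P2ry10 are given, since these 3 genes differed between the populations and a promoter window of RefSeq (GRCm38.p6) reaches the start of each in GENCODE. Gpr35 differed too, but both of its RefSeq windows lie inside the gene as GENCODE gives it, and its sequence is not shown. The sequences end at the base before the gene's annotated start. Capitals in them mark motifs found by a search of both strands for AGATAA (known from GATA factors), GAGGAAG (ETS factors), AGGTCA (a single retinoic acid receptor site), GCGTG (the core bound by the aryl hydrocarbon receptor) and TGACG (a single CREB site). The Ffar1 stretch, at chr7:30861565-30861720 on the minus strand, held none of them, nor did the 250 bases of its RefSeq window, of which only the 156 before the GENCODE start are shown.
Ffar1: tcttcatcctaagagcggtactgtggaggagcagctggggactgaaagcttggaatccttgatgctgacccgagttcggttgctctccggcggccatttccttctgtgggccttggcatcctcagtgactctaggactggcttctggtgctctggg
The Ffar2 stretch, at chr7:30823776-30824025 on the minus strand, held GCGTG and, as TGACCT on the other strand, AGGTCA.
Ffar2: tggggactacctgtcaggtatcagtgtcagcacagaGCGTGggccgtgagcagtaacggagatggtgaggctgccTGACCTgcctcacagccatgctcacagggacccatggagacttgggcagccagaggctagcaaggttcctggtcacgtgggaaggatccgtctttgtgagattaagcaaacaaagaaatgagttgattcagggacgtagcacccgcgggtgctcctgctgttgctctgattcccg
The P2ry10 stretch, at chrX:107088242-107088491 on the plus strand, held AGATAA as TTATCT on the other strand, and AGGTCA as TGACCT.
P2ry10: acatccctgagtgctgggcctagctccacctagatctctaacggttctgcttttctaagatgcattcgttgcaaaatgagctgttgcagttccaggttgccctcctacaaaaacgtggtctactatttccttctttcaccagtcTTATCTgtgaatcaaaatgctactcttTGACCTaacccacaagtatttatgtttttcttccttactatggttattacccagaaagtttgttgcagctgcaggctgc
Of the RefSeq windows not shown, 1 of the 2 for Gpr35 held GAGGAAG, and the other window of P2ry10 held GAGGAAG and TGACG. Of the 3 others of Ffar2, 2 held AGGTCA, and these overlap each other, so that they may hold the same site. All of these windows lie inside their gene as GENCODE gives it. Among genes that were not called, 1 of the 4 windows of P2ry14 held AGATAA and AGGTCA, another held AGATAA as well as GAGGAAG and GCGTG, and the Adora2b window held GCGTG. Over the 250 upstream bases of 32851 RefSeq windows, the length searched for every gene, AGATAA stood in 9.99%, GAGGAAG in 10.6%, AGGTCA in 14%, GCGTG in 28.2% and TGACG in 17.8%. A match is a run of letters and no evidence of binding. Windows were found for 8 of the 10 genes, all but Hcar2 and Adora2a.

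Ffar1, the receptor for medium-chain and long-chain fatty acids also called GPR40, had the largest differences of the 7 tested genes in all 3 comparisons. In α4β7+ libraries its normalized counts were 57.93, 67.57, 53.46 and 79.93, with a mean of 64.72 ± 11.7 (SD, n = 4). In α4β7- CD22- libraries they were 249.4, 186.7, 184.6 and 240.9, with a mean of 215.4 ± 34.5 (SD, n = 4). In CD22+ libraries they were 860.0, 787.7, 601.7 and 871.3, with a mean of 780.2 ± 125 (SD, n = 4). All 4 libraries of each population lay apart from those of the others, and the order α4β7+, α4β7- CD22-, CD22+ held throughout. Ffar1 was 3.3-fold higher in α4β7- CD22- than in α4β7+ eosinophils (log2 fold change 1.72, SE 0.171, limma adjusted p = 8.15e-06). It was 11.9-fold higher in CD22+ than in α4β7+ eosinophils (log2 fold change 3.57, SE 0.171, limma adjusted p = 2.54e-09) and 3.61-fold higher than in α4β7- CD22- eosinophils (log2 fold change 1.85, SE 0.171, limma adjusted p = 5.12e-05). The later step, from α4β7- CD22- to CD22+, exceeded the earlier one by only 0.13 on the log2 scale (95% interval -0.51 to 0.76, limma adjusted p = 0.926), so that a difference between the steps was not detectable here, within that interval.

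In GENCODE annotation of GRCm38, Ffar1 is a single exonic block of 4175 bases at chr7:30857390-30861564 on the minus strand. Cd22, the gene of the sort marker, lies on the same strand at chr7:30865402-30880342, so that its end stands 3838 bases upstream of the Ffar1 start, and the genes share 0 exonic bases. Since CD22 protein was used to sort the cells, the Cd22 differences of CD22+ libraries from the others are tied to the sort. The cause of the difference between α4β7- CD22- and α4β7+ libraries, neither labelled CD22 positive, was not tested. All of them are given only as a reference for Ffar1. Normalized counts of Cd22 averaged 1115 ± 175 over the α4β7+ libraries, 4462 ± 934 over those of α4β7- CD22- and 13334 ± 1588 over those of CD22+ (SD, n = 4 each). Its log2 fold changes, in the order used above for Ffar1, were 1.99, 3.58 and 1.59.

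Per kb of exon, Ffar1 stood at 7.12 ± 1.7% of Cd22 for α4β7+, 5.93 ± 1.05% for α4β7- CD22- and 7.05 ± 0.566% for CD22+ libraries (SD, n = 4 each). The libraries of the 3 populations overlapped in this percentage, which ran from 5% to 9.65%, while between α4β7+ and CD22+ libraries Ffar1 was 11.9-fold and Cd22 12-fold higher. Of all exonic stretches of 31 bases in Ffar1 transcripts, 1.35% also occurred in transcripts of other genes. Whether reads from transcripts that run past the end of Cd22 were counted for Ffar1 was not tested.

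**Figure D2:**
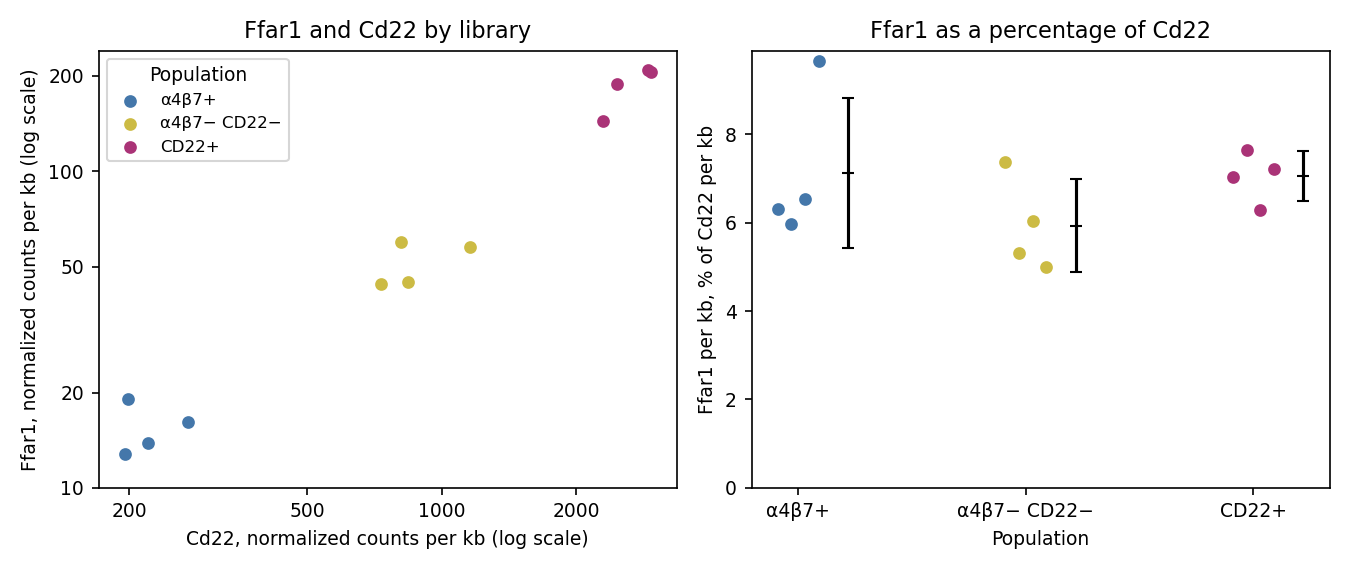
Left, Ffar1 against Cd22 in the 12 libraries, in normalized counts per kb of exon on log axes; right, Ffar1 per kb as a percentage of Cd22 per kb, with 1 point per library and the mean ± SD of 4 libraries beside it. The populations separate along both axes on the left, and their percentages overlap on the right, with means of 7.12, 5.93 and 7.05%.

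Of the other genes at this locus, Ffar3 was too low to test and Mag was not called. Ffar3, a short-chain fatty acid receptor whose start lies 1212 bases beyond the end of Ffar1, averaged 3.555 normalized counts and was not tested. Ffar3 reached 16.93 in CD22+ replicate 1 and was between 3.523 and 4.865 in the other CD22+ libraries, against 0 to 2.313 in α4β7+ and 1.148 to 3.357 in α4β7- CD22- libraries. Mag, on the far side of Cd22 and 37612 bases from Ffar1, was called in no comparison, with log2 fold changes of 0.23, -0.04 and -0.27.

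**Figure D3:**
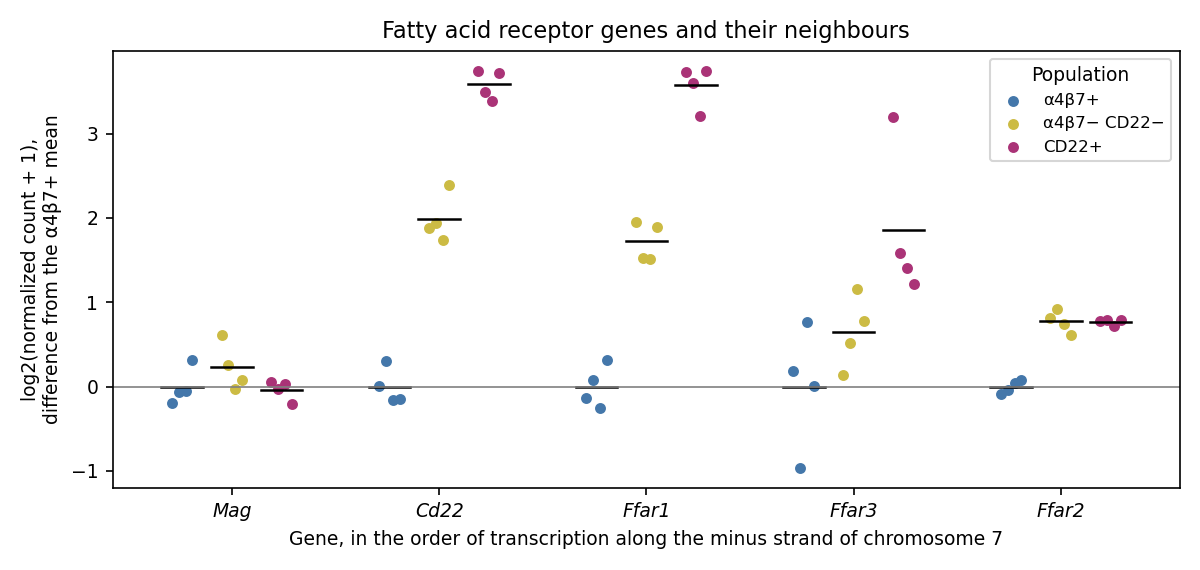
Difference of each library from the α4β7+ mean in log2(normalized count + 1) for 5 genes in their order along the minus strand of chromosome 7, with 1 point per library and a bar at the mean of 4 libraries. Cd22 and Ffar1 stand 1.99 and 1.72 above α4β7+ in α4β7- CD22- and 3.58 and 3.57 above it in CD22+ libraries, Mag stays near 0, and Ffar2 takes only the first step.

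Ffar1 and Cd22 are also known from other cells of the gut wall, so the markers of those cells are given beside them. The 7 listed B cell and plasma cell markers, which were all tested, summed to 3349 to 7007 for α4β7+, 2508 to 7258 for α4β7- CD22- and 3331 to 7407 for CD22+ libraries, mostly from Jchain. The number of these B cell and plasma cell markers called in any comparison was 0. The 6 enteroendocrine markers, from cells where Ffar1 is well known, summed to 647.6 to 2308 in α4β7+ libraries and were lower in the others, at 50.11 to 238.3 in α4β7- CD22- and 101.8 to 225.5 in CD22+. Of these markers 3 were tested, and Chga and Chgb were called lower in both of those populations. The part of other gut cells in the Ffar1 and Cd22 values was not tested.

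Ffar2, the short-chain fatty acid receptor also called GPR43, was an abundant transcript that took a single step. Its normalized counts were 2098, 2165, 2307 and 2362 in α4β7+ libraries (mean 2233 ± 123, SD, n = 4). They were 3929, 4206, 3734 and 3420 in α4β7- CD22- libraries (3822 ± 331, SD, n = 4) and 3838, 3845, 3675 and 3855 in CD22+ libraries (3803 ± 85.6, SD, n = 4). Every library of the α4β7- CD22- and CD22+ populations was above every α4β7+ library, and those populations overlapped each other. Ffar2 was 1.71-fold higher in α4β7- CD22- than in α4β7+ eosinophils (log2 fold change 0.77, SE 0.0719, limma adjusted p = 4.45e-06) and 1.7-fold higher in CD22+ eosinophils (log2 fold change 0.77, limma adjusted p = 1.97e-06). Between CD22+ and α4β7- CD22- eosinophils the log2 fold change was 0.00, with a 95% interval of -0.16 to 0.15.

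The 2 steps of Ffar2 differed from each other by -0.78 on the log2 scale (95% interval -1.04 to -0.51, limma adjusted p = 0.00604). Ffar2 was the only 1 of the 7 tested receptor genes whose steps were called different, against 1.23% of all tested genes. It lies at chr7:30818348-30823775 on the minus strand, 33615 bases from Ffar1, and 0.324% of its 31-base stretches occurred in other genes.

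Gpr35, a receptor for tryptophan metabolites and other small acids, was lower in both other populations than in α4β7+ eosinophils. Its normalized counts were 200.2, 184.1, 129.9 and 192.0 in α4β7+ libraries (mean 176.6 ± 31.8, SD, n = 4). They were 83.71, 73.21, 99.61 and 54.06 in α4β7- CD22- libraries (77.65 ± 19.1, SD, n = 4) and 115.5, 88.34, 74.88 and 91.02 in CD22+ libraries (92.44 ± 16.9, SD, n = 4). No library of either population reached the lowest α4β7+ value. Gpr35 was 2.28-fold lower in α4β7- CD22- than in α4β7+ eosinophils (log2 fold change -1.19, SE 0.22, limma adjusted p = 0.00187) and 1.9-fold lower in CD22+ eosinophils (log2 fold change -0.92, limma adjusted p = 0.00716). Between CD22+ and α4β7- CD22- eosinophils its log2 fold change was 0.27 (95% interval -0.21 to 0.74, limma adjusted p = 0.802).

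Hcar2, the receptor for the ketone body β-hydroxybutyrate, butyrate and niacin, was not called in any comparison. It held 1194, 926.2, 813.9 and 748.9 normalized counts in α4β7+ libraries (mean 920.8 ± 196, SD, n = 4). The α4β7- CD22- libraries held 738.4, 586.4, 631.5 and 588.8 (636.3 ± 71.1, SD, n = 4), and the CD22+ libraries held 749.2, 688.4, 508.2 and 699.1 (661.2 ± 105, SD, n = 4). All α4β7- CD22- libraries lay under the lowest α4β7+ library, though replicate 1, at 738.4, only just, while the highest CD22+ library reached it. The difference was -0.52 on the log2 scale between α4β7- CD22- and α4β7+ eosinophils (95% interval -0.84 to -0.19, limma adjusted p = 0.0321) and -0.47 between CD22+ and α4β7+ eosinophils (95% interval -0.79 to -0.15, limma adjusted p = 0.0387), under the 1.5-fold limit in both. It was called in the former comparison when α4β7+ replicate 4 was left out (log2 fold change -0.61, limma adjusted p = 0.0202) or α4β7- CD22- replicate 1 was (log2 fold change -0.59, limma adjusted p = 0.0281). Over all 12 libraries left out in turn, the log2 fold change ran from -0.61 to -0.38 and the adjusted p from 0.0181 to 0.0942, both highest without α4β7+ replicate 1.

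The bile acid receptor Gpbar1 (TGR5) and the succinate receptor Sucnr1 were at the limit of detection. Counting noise was judged against 3 reads, which correspond to between 2.56 and 3.48 normalized counts depending on the library. Gpbar1 was at or under that limit in all 12 libraries and at 0 in 7 of them, with a highest value of 2.734 in α4β7- CD22- replicate 2. Sucnr1 was at or under it in all 12 libraries and at 0 in 10, with 0.9232 and 1.155 normalized counts in α4β7+ replicates 3 and 4. A difference between populations was not detectable for either gene at this depth. With no filter on low values, the lowest limma adjusted p over the comparisons was 0.864 for Gpbar1 and 0.378 for Sucnr1. Tuft cells, where Sucnr1 is well known in the small intestine, had 7 markers that summed to 4503 to 5679 normalized counts in α4β7+, 3254 to 3912 in α4β7- CD22- and 2594 to 3227 in CD22+ libraries, mostly from Alox5ap, a gene that eosinophils also express. Of the 5 tested, Il17rb, Dclk1 and Alox5ap were called lower in CD22+ than in α4β7+ eosinophils, and Il17rb in α4β7- CD22- eosinophils. The part of tuft cells in the Sucnr1 values was not tested.

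P2ry10, a lysophosphatidylserine receptor grouped with the P2Y receptors by sequence, was also lower in both other populations. Its normalized counts were 2016, 1786, 1611 and 1378 in α4β7+ libraries (mean 1698 ± 270, SD, n = 4). They were 787.5, 803.8, 912.4 and 847.6 in α4β7- CD22- libraries (837.8 ± 55.8, SD, n = 4) and 643.2, 550.2, 558.7 and 579.9 in CD22+ libraries (583 ± 42, SD, n = 4). The populations did not overlap, and their order was the reverse of that of Ffar1. P2ry10 was 2.01-fold lower in α4β7- CD22- than in α4β7+ eosinophils (log2 fold change -1.01, SE 0.109, limma adjusted p = 1.87e-05) and 2.89-fold lower in CD22+ eosinophils (log2 fold change -1.53, limma adjusted p = 1.27e-07). From α4β7- CD22- to CD22+ it was 1.44-fold lower (log2 fold change -0.52, SE 0.109, limma adjusted p = 0.0337), which is under the 1.5-fold limit and not a call.

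P2ry10 spans chrX:107088492-107104974 on the plus strand, and its paralog P2ry10b lies 43953 bases away. Of the 31-base stretches of P2ry10 transcripts, 5.77% also occurred elsewhere, all of them in P2ry10b, so that some reads could be assigned to either gene. P2ry10b averaged 67.17 normalized counts over α4β7+, 41.75 over α4β7- CD22- and 34.31 over CD22+ libraries and was called in no comparison. T cells and innate lymphoid cells also express P2ry10. Of their 7 markers 6 were in the table and tested, and these summed to 906.6 to 1396 for α4β7+, 603.3 to 882.4 for α4β7- CD22- and 880.5 to 1225 for CD22+ libraries. Of these markers Il7r, Cd3e and Cd8a were called lower in α4β7- CD22- than in α4β7+ libraries, and 0 were called between CD22+ and α4β7+ libraries, where P2ry10 differed most. The part of these cells in the P2ry10 values was not tested.

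P2ry14, the UDP-glucose receptor, had the highest normalized counts of the 10 genes and differed by at most 1.21-fold between population averages. The α4β7+ libraries held 9816, 10311, 9805 and 9814 (mean 9937 ± 250.0, SD, n = 4). The α4β7- CD22- libraries held 12834, 11559, 12436 and 11306 (12034 ± 721, SD, n = 4), and the CD22+ libraries held 9713, 11403, 9367 and 10190.1 (10168 ± 890.0, SD, n = 4). The intermediate population was highest, above all α4β7+ libraries and overlapping 1 CD22+ library. P2ry14 was 1.21-fold higher in α4β7- CD22- than in α4β7+ eosinophils (log2 fold change 0.27, SE 0.069, limma adjusted p = 0.0144), under the 1.5-fold limit. The CD22+ eosinophils differed from α4β7+ eosinophils by 0.03 (95% interval -0.12 to 0.18) and from α4β7- CD22- eosinophils by -0.25 (95% interval -0.39 to -0.1, limma adjusted p = 0.14). These values depended on the scaling. With quantile normalization they were 0.23 (limma adjusted p = 0.0214) and -0.12 (limma adjusted p = 0.631), under the 1.5-fold limit too.

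The 2 steps of P2ry14 differed by -0.52 on the log2 scale with a limma adjusted p of 0.0501, and without CD22+ replicate 2, the highest CD22+ library, the value was -0.58 (limma adjusted p = 0.0240), past the threshold. It was past it with 1 of the 12 libraries left out in turn, with an adjusted p of up to 0.172 (without α4β7- CD22- replicate 1), and the adjusted p was 0.186 with no variance trend, 0.11 with no filter and 0.0697 in the fit blocked by replicate number. P2ry14 lies at chr3:59113855-59153618 on the minus strand inside Med12l, which is transcribed from the plus strand and shares 0 exonic bases with it. Med12l, too, was higher in α4β7- CD22- than in α4β7+ eosinophils, by 0.96 on the log2 scale (limma adjusted p = 1.7e-05), and in CD22+ eosinophils by 0.65 (limma adjusted p = 0.000324). How strand was treated when the reads were assigned is not given in the sources used here.

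Adora2a, the adenosine receptor that raises cyclic AMP and restrains many leukocytes, had overlapping libraries in all 3 populations and was not called. It held 134.9, 90.45, 247.0 and 121.9 normalized counts in α4β7+ libraries (mean 148.6 ± 68.2, SD, n = 4). The α4β7- CD22- libraries held 127.9, 76.66, 132.7 and 59.81 (99.29 ± 36.6, SD, n = 4), and the CD22+ libraries held 83.85, 112.7, 42.43 and 44.64 (70.91 ± 33.7, SD, n = 4). The α4β7+ replicate 3 was the highest of all 12 libraries. The log2 fold change was -1.08 between CD22+ and α4β7+ eosinophils (SE 0.375, 95% interval -1.88 to -0.28, limma adjusted p = 0.0546), and no call was made. Leaving out α4β7+ replicate 2, α4β7- CD22- replicate 4 or CD22+ replicate 2 gave a call, with limma adjusted p of 0.0352, 0.0490 and 0.0241, while over all libraries left out in turn the adjusted p ran up to 0.168. Its other differences were -0.55 between α4β7- CD22- and α4β7+ eosinophils (limma adjusted p = 0.379) and -0.52 between CD22+ and α4β7- CD22- eosinophils (limma adjusted p = 0.751). With 1 library left out, they ran from -0.76 to -0.28 and from -0.78 to -0.32.

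Adora2b, a lower-affinity adenosine receptor, averaged 6.843 normalized counts and stayed under the filter. Its values ran from 2.315 to 10.16 in α4β7+, from 2.997 to 12.07 in α4β7- CD22- and from 0 to 9.807 in CD22+ libraries, with 2 libraries at or under the limit of 3 reads. A difference was not detectable at this depth (lowest limma adjusted p 0.782 with no filter).

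**Figure D4:**
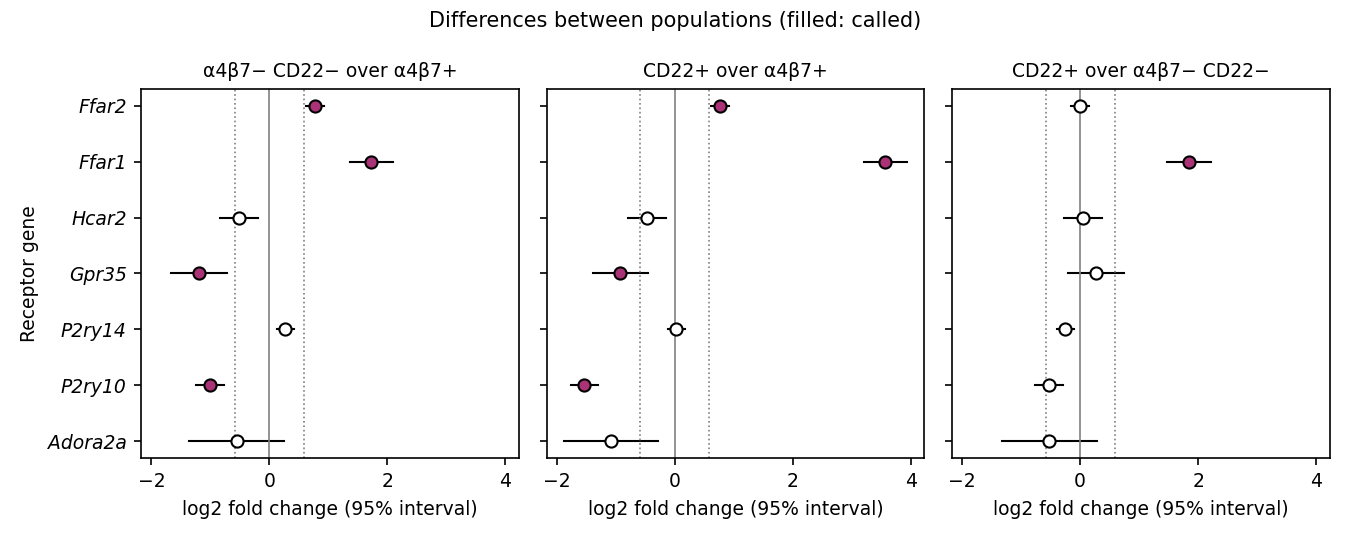
Log2 fold changes of the 7 tested receptor genes in the 3 comparisons, with 95% intervals from limma; filled points were called, and dotted lines mark a 1.5-fold difference. Ffar1 lies at 1.72, 3.57 and 1.85, Ffar2 at 0.77, 0.77 and 0.00, and Gpr35 and P2ry10 lie below 0 in the left and middle panels.

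Compared per kb of exon, so that long and short genes can be set side by side, P2ry14 and Ffar2 led in every population. The length used joins all annotated exons, 11059 bases for P2ry14 and 2790 for Ffar2. The order of genes therefore depends on which transcripts were expressed, which was not measured. Without this scaling, P2ry14 was above Ffar2 in all 12 libraries. In α4β7+ libraries P2ry14 stood at 899 normalized counts per kb and Ffar2 at 800.0. In α4β7- CD22- libraries the order was turned, with Ffar2 at 1370.0 and P2ry14 at 1088, and in CD22+ libraries Ffar2 stood at 1363 and P2ry14 at 919, with no overlap between libraries of the pair in any population. Ffar1 had the lowest level of the 7 tested genes in α4β7+ libraries, at 15.5 per kb, below Gpr35 at 36.5 with no overlap. In CD22+ libraries it stood at 187 per kb, next to P2ry10 at 196, whose libraries it overlapped. P2ry10 stood at 569 per kb in α4β7+ libraries, overlapping Hcar2 at 477, and in CD22+ libraries it was below Hcar2, at 343, with no overlap. Adora2a and Gpr35 overlapped in all 3 populations, at 48.5 and 36.5 per kb in α4β7+, 32.4 and 16 in α4β7- CD22- and 23.2 and 19.1 in CD22+ libraries.

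For the 4 called receptor genes, the most similar genes were looked for by Pearson's r of log2 values over the 12 libraries among 9176 genes with a mean of at least 100 normalized counts. The 12 libraries fall into 3 groups, so that any gene that separates the populations scores high. Ffar1 was most like Jaml (r = 0.994), Cd22 (0.987) and Hnrnpll (0.986). Ffar2 was most like Pgm2 (0.982), Klhl18 (0.98) and Septin5 (0.97). P2ry10 was most like Cd69 (0.987), Dusp1 (0.985) and Nfkbia (0.98), genes known to be induced rapidly when cells are stimulated. Gpr35 was most like Fam126a (0.925), Usp25 (0.915) and Ehd1 (0.913).

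Other receptors of the same kinds were read from 2 further lists. Of 16 other metabolite receptors 8 passed the filter, and 1 was called higher and 1 lower both between α4β7- CD22- and α4β7+ and between CD22+ and α4β7+ eosinophils. A single gene is 12.5% of the 8, beside 3.7% higher and 4.35% lower over all tested genes in the former comparison and 5.6% and 6.39% in the latter. The median log2 fold change of these 8 was 0.04 and 0.00, against 0.00305 and 0.0138 over all tested genes. Gpr65, a receptor for extracellular protons, averaged 3654 normalized counts over α4β7+, 867.7 over α4β7- CD22- and 528.9 over CD22+ libraries, and it was called lower in all 3 comparisons (log2 fold changes -2.08, -2.8 and -0.72; limma adjusted p = 2.93e-08, 5.08e-10 and 0.00593). Gpr183, a receptor for oxysterols, was highest in the intermediate population, with means of 1051, 1705 and 1167, and was called between α4β7- CD22- and α4β7+ eosinophils (log2 fold change 0.70, limma adjusted p = 0.00014). The difference between CD22+ and α4β7- CD22- eosinophils was under the fold limit (log2 fold change -0.55, limma adjusted p = 0.00983). Gpr4, another proton receptor, was called higher in CD22+ than in α4β7+ eosinophils (log2 fold change 1.3, limma adjusted p = 0.039) from means of only 23.54 and 9.499. The Gpr4 call was lost when any 1 of the CD22+ libraries or of α4β7+ replicates 2, 3 and 4 was left out, with an adjusted p of up to 0.107.

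Of 15 other nucleotide and adenosine receptors 11 passed the filter. Between CD22+ and α4β7+ eosinophils 1 was called higher and 4 lower, and between α4β7- CD22- and α4β7+ eosinophils 1 higher and 2 lower. These are 9.09% and 36.4% of the 11 in the former comparison, beside 5.6% and 6.39% of all tested genes, and 9.09% and 18.2% in the latter, beside 3.7% and 4.35%. The median log2 fold changes of the 11 were -0.09 and -0.30. The ADP receptor P2ry12 rose, from a mean of 100.3 normalized counts in α4β7+ to 222.6 and 258.7 in α4β7- CD22- and CD22+ libraries (log2 fold changes 1.1 and 1.33; limma adjusted p = 0.00816 and 0.00131). The adenosine receptor Adora3 fell, from 1327 to 820.5 and 673.7 (log2 fold changes -0.69 and -0.98; limma adjusted p = 0.000706 and 1.55e-05). The ATP-gated channel P2rx4 also fell in both, by 0.77 and 0.71 on the log2 scale (limma adjusted p = 0.00298 and 0.00336). The ATP-gated channel P2rx1 and the ATP and UTP receptor P2ry2 were called lower in CD22+ than in α4β7+ eosinophils (log2 fold changes -0.89 and -0.72; limma adjusted p = 4.2e-07 and 3.86e-05). Between α4β7- CD22- and α4β7+ eosinophils they stood at log2 fold changes of -0.57 and -0.55 (limma adjusted p = 7.25e-05 and 0.000737), just under the 1.5-fold limit. Between CD22+ and α4β7- CD22- eosinophils 0 of the 11 were called in limma, and 2 had an unadjusted p below 0.05 and were lower, as were 6.02% of all tested genes. These were P2rx1 (log2 fold change -0.32, limma adjusted p = 0.0459), which was under the fold limit, and Adora3 (log2 fold change -0.29, limma adjusted p = 0.355).

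Of 18 genes that make, break down or carry extracellular nucleotides and adenosine, 14 were tested. Between CD22+ and α4β7+ eosinophils 1 was called higher and 3 lower, and between α4β7- CD22- and α4β7+ eosinophils 1 higher and 2 lower. These are 7.14% and 21.4% of the 14 in the former comparison, beside 5.6% and 6.39% of all tested genes, and 7.14% and 14.3% in the latter, beside 3.7% and 4.35%. Entpd1 (CD39), which removes phosphate from ATP and ADP, had means of 7503, 13034 and 11311 normalized counts in the 3 populations and was called higher in both (log2 fold changes 0.80 and 0.60; limma adjusted p = 0.000141 and 0.000928). Without α4β7+ replicate 2, CD22+ replicate 1 or CD22+ replicate 2, the Entpd1 difference between CD22+ and α4β7+ eosinophils was under 1.5-fold, with a lowest log2 fold change of 0.51. Slc29a2, a nucleoside transporter, was called lower in all 3 comparisons, from means of 142.2, 36.04 and 12.1 (log2 fold changes -1.95, -3.5 and -1.55; limma adjusted p = 0.00118, 2.91e-06 and 0.0436). The last of these Slc29a2 calls was lost in 16 of 22 alternatives, among them the removal of any 1 library other than CD22+ replicate 4, with an adjusted p of up to 0.137.

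Ada, which converts adenosine to inosine, was called lower in α4β7- CD22- than in α4β7+ eosinophils (log2 fold change -1.0, limma adjusted p = 0.00706). Its call in CD22+ eosinophils (log2 fold change -0.66, limma adjusted p = 0.0467) was lost in 13 of 22 alternatives, among them the fit blocked by replicate number. Others were the removal of any 1 α4β7+ library, of α4β7- CD22- replicates 1, 2 or 3 or of CD22+ replicates 1 or 4. Nt5e (CD73), which makes adenosine from AMP, was called lower in CD22+ than in α4β7+ eosinophils (log2 fold change -0.88, limma adjusted p = 0.0441), and this was lost in 10 of 22 alternatives, among them the removal of α4β7+ replicates 2, 3 or 4, α4β7- CD22- replicate 2 or CD22+ replicates 1, 2 or 4.

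The signalling genes that such receptors act through were read from a further list. Of 46 genes for G proteins, adenylyl cyclases, protein kinase A, phosphodiesterases, arrestins and regulators, 41 were tested, and 1 was called higher and 2 lower between α4β7- CD22- and α4β7+, 1 higher and 3 lower between CD22+ and α4β7+, and 0 higher and 1 lower between CD22+ and α4β7- CD22- eosinophils. These are 2.44% higher and 4.88% lower, 2.44% and 7.32%, and 0% and 2.44% of the 41, beside 3.7% and 4.35%, 5.6% and 6.39%, and 0.21% and 0.393% of all tested genes. At an unadjusted p below 0.05 the counts among the 41 were 6 higher and 12 lower, 5 and 14, and 1 and 3, beside 13.6% and 13.5%, 16.1% and 15.9%, and 3.65% and 6.02% of all tested genes. Against α4β7+, the lower genes were thus a larger share of the 41 than of all tested genes, while the share of higher genes was closer to that of all. Some of these passed the adjusted p and missed the fold limit, among them Gnai2, an inhibitory G protein subunit (log2 fold changes -0.42 and -0.51 against α4β7+; limma adjusted p = 0.000246 and 2.07e-05), and the arrestin Arrb1 (0.47 and 0.40; limma adjusted p = 0.00102 and 0.00227), which are named after their values were seen. The median log2 fold changes of the 41 were 0.00, -0.12 and -0.06. Rgs1, which turns off G protein signals, averaged 24768 normalized counts over α4β7+, 73790 over α4β7- CD22- and 72608 over CD22+ libraries, and like Ffar2 it was called over α4β7+ but not between CD22+ and α4β7- CD22- eosinophils (log2 fold changes 1.58 and 1.54 over α4β7+; limma adjusted p = 8.53e-07 and 4.22e-07). Rgs18, of the same family, fell in all 3 comparisons (log2 fold changes -0.86, -1.75 and -0.89), and Rgs19 fell in CD22+ against α4β7+ eosinophils by 0.68 on the log2 scale (limma adjusted p = 1.8e-05). Prkar2b, a regulatory subunit of protein kinase A, was called lower in α4β7- CD22- and CD22+ than in α4β7+ eosinophils (log2 fold changes -1.6 and -1.96; limma adjusted p = 0.0388 and 0.00949). The former Prkar2b call was lost in 8 of 21 alternatives, among them the removal of any 1 α4β7+ library or of α4β7- CD22- replicates 1, 2 or 3. Of 9 nuclear receptors for metabolites 7 were tested, and 0 were called in limma in any comparison, with 1 (Nr1i2, lower in CD22+ than in α4β7+ libraries) at an unadjusted p below 0.05.

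**Figure D5:**
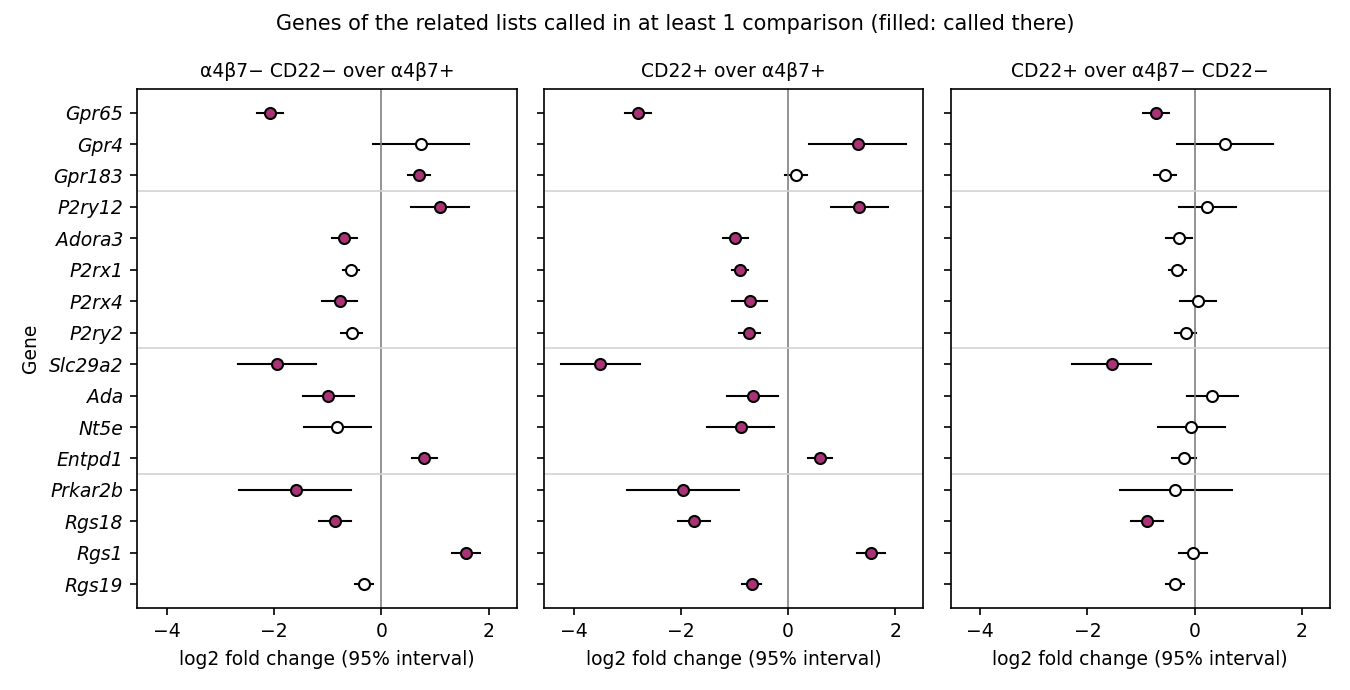
Log2 fold changes, with 95% intervals from limma, of the genes of the related lists that were called in at least 1 comparison; lines part the lists, and filled points were called in that panel. Gpr65 and Slc29a2 lie furthest below 0 between CD22+ and α4β7+ eosinophils, at -2.8 and -3.5, and Rgs1 lies at 1.58, 1.54 and near 0.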

How the data were processed

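Sorted eosinophils were lysed, and total RNA (3 ng) was made into stranded total RNA libraries. According to the submitters' processing notes and the study's methods, the authors trimmed the reads (Trimmomatic 0.39) and assigned them to transcripts (kallisto 0.46.1, GRCm38). The authors then scaled the estimates with DESeq2 (1.38.2). The annotation and strand setting are not given in the sources used here. The deposited table holds these normalized counts, a scaled signal per gene; whole reads could not be recovered from it, since 30.7 to 64.6% of low values lay within 5% of a whole read, so no count test was run and depth is approximate (about 13858261 to 17321909 reads per library, with 19760 to 21960 genes above 0).

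The members and gene lists were chosen with earlier results of these data known. Groups were taken from the labels. Values were converted to log2(normalized count + 1), genes with an average above 10 were kept (15249), and limma 3.58.1 (R 4.3.3) was fitted to the 3 populations with a variance trend, Benjamini-Hochberg adjustment over all tested genes and a further contrast of the later against the earlier step. The script was tested on simulated data. Gene positions came from GENCODE M21 (GRCm38), which held all 36047 identifiers, and 31-base stretches were compared over its transcripts. Named were all 10 receptor genes, up to 6 called genes of each related list by largest change, and the 3 most similar genes of each called receptor. Marker lists not described with the results were enterocytes (sums of 598.8 to 3560 normalized counts over all libraries, 0 of 8 called), Paneth cells (77.9 to 1436; Defa30 called higher in CD22+ than in α4β7+), macrophages (1685 to 3300; 0 of 7 called), dendritic cells (203.5 to 410.6; Itgae called lower in α4β7- CD22- than in α4β7+), neutrophils (7.305 to 62.27; Elane at 0 and S100a9 called lower in CD22+ than in α4β7+), mast cells (57.6 to 177.9, nearly all Kit; Tpsb2 at 0) and stroma and endothelium (10170 to 13545, mostly Pecam1; 0 of 6 called). Deviations of same-numbered CD22+ and α4β7- CD22- libraries were weakly correlated (0.135, 0.161, 0.177 and 0.203), and no label gives a shared origin. Differently numbered libraries were not compared, so that these values cannot settle whether the libraries are paired. The main fit held no pair term, and the replicate number entered only as a block in an alternative fit. Alternatives were other pseudocounts, filters and scalings, no variance trend, adjusted p alone, the replicate number as a block, only the populations compared, and each library left out in turn.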

Additional observations from a re-analysis of the deposited data

Results flagged for a closer look

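Within each group of 4 libraries, the highest and lowest values of the 7 tested receptor genes and of Gpbar1, Adora2b and Sucnr1 were checked with Dixon's test. Of the groups checked, 28 in number, 3 held a library that stood apart. Chance alone gives about 1 in 20 for normal values. That rate does not hold for groups with libraries tied at 0, as for Gpbar1 and Sucnr1. For Ffar2, CD22+ replicate 3 was below the other CD22+ libraries at 3675 normalized counts, a small gap in a group that was otherwise tight. For P2ry14, α4β7+ replicate 2 was above the other α4β7+ libraries at 10311 normalized counts. For Gpbar1, CD22+ replicate 1 held 1.967 normalized counts where the other CD22+ libraries held 0, which is under the limit of 3 reads.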

How the results depend on the processing

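Over the 22 alternatives run (20 for the difference between steps), the calls of Ffar1, Ffar2, Gpr35 and P2ry10 against α4β7+ and of Ffar1 between CD22+ and α4β7- CD22- were kept with their direction, and no receptor gene's call reversed. With adjusted p alone, 2 receptor genes rather than 1 were called between CD22+ and α4β7- CD22- eosinophils, the added one being P2ry10. The number of receptor genes whose steps differed was 2 rather than 1 with the filter at 50 and with rescaling by the 75th percentile, and 1 to 2 with 1 library left out, 2 without CD22+ replicate 2; P2ry14 was the added gene each time. Its adjusted p was 0.0408 with the filter at 50 and 0.0400 with rescaling, and ran up to 0.186 over the 20 alternatives. Adora2a was called between CD22+ and α4β7+ with the filter at 50 (adjusted p = 0.0462). The correlations of same-numbered libraries were -0.059 to 0.182 between α4β7+ and the other populations, and no pairing was put into the main fit for any population. With the replicate number as a block, Ffar1 had adjusted p = 7.76e-06, 1.17e-08 and 7.34e-05 in the 3 comparisons, and the calls of the receptor genes were those without it. With it, 40 genes in all were called higher and 60 lower between CD22+ and α4β7- CD22- eosinophils. Over all genes, calls between CD22+ and α4β7- CD22- eosinophils were 32 higher and 60 lower, but 13 and 41 with no variance trend and 39 and 125 with adjusted p alone. With 1 library left out they were 16 to 35 higher and 44 to 59 lower, the higher count being 17, 19 and 16 without CD22+ replicates 1, 2 and 4 and 20 and 19 without α4β7- CD22- replicates 2 and 3. Against α4β7+, adjusted p alone gave 1087 higher and 1178 lower genes for α4β7- CD22- (564 and 664 with the fold limit) and 1532 and 1691 for CD22+ (854 and 975). Genes whose steps differed numbered 187, but 86 with no variance trend and 95, 90, 98 and 119 without α4β7- CD22- replicates 1, 2, 3 and 4 in turn. The causes were not tested. No difference was detectable at this depth for Gpbar1, Sucnr1 and Adora2b.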
